A study of Mus musculus with 6 samples.

Results

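Small nucleolar RNAs (snoRNAs), the related small Cajal body RNAs (scaRNAs) and the Snhg transcripts that carry snoRNAs in their introns were examined in bulk RNA-seq of tumor endothelial cells (TECs). The members were the rows of the expression table whose name begins with Snord or Snora and a number, with Scarna, or with Snhg and a number. There were 130 such rows among the 23473 RefSeq rows, comprising 74 box C/D snoRNAs (Snord), 36 box H/ACA snoRNAs (Snora), 9 scaRNAs and 11 Snhg genes. TECs were enriched with CD31-coated beads from Lewis lung carcinoma (LLC) tumors that had been inoculated into C57BL/6 mice aged 8 weeks. The labels say that tumors were taken on different days, and the methods name a single day. There were 3 libraries labelled NICeCA, from mice in which Cdh5-CreERT, a Cre that tamoxifen activates in cells using the Cdh5 promoter, removes a floxed stop before the Notch1 intracellular domain in the Rosa26 locus, and 3 libraries labelled wild type, called Ctrl. The comparison asks how forced Notch signaling in the endothelium is reflected in these RNAs. The labels state a purity above 90% for the bead fraction. Per the methods, the cells came from NICeCA and control mice in pairs, as many pairs as there were libraries in a group. Which libraries form a pair is not stated in the labels or methods.

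Box C/D snoRNAs guide 2′-O-methylation and box H/ACA snoRNAs guide pseudouridylation, mostly of ribosomal RNA in the nucleolus, while scaRNAs guide the same modifications of spliceosomal snRNAs in Cajal bodies. In mammals nearly all of them are cut from introns of host genes, many of which encode ribosomal proteins or nucleolar proteins. Snhg genes are hosts whose spliced transcript has little or no coding function and is often removed by nonsense-mediated decay, so that the intron-derived RNA and the exons of 1 gene can reach very different levels.

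The short boxes that define these classes were visible in the sequences of the members on which the results below turn. All sequences are GENCODE M21 transcripts on GRCm38, read 5′ to 3′, with capitals for the box found by a search of the sense strand. The letters searched were TGATGA in the first 25 bases (box C) and CTGA in the last 25 bases (box D) of Snord transcripts, and ACA at 3 bases from the 3′ end of Snora transcripts. Among the 98 Snord transcripts of the annotation, 71.4% held TGATGA, 99.0% held CTGA and 70.4% held both, and among the 42 Snora transcripts 83.3% held the ACA. Snord22, Snord34 and Snord35a held no TGATGA in that window. The first set holds the abundant rows Snord22 (chr19:8725866-8725991, plus strand), Snord17 (chr2:144265979-144266216, minus strand), Snord15b (chr7:99479563-99479707, minus strand) and Snora23 (chr7:110046364-110046547, plus strand).
Snord22: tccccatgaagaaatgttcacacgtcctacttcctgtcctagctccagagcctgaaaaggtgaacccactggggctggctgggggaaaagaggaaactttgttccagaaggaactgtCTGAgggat
Snord17: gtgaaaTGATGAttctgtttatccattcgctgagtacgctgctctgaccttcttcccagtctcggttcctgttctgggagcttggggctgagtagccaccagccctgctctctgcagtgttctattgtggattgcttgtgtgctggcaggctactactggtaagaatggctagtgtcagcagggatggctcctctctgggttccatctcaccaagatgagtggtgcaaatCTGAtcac
Snord15b: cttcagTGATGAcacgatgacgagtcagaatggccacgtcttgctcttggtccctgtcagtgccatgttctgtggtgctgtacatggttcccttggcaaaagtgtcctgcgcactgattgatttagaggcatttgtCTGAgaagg
Snora23: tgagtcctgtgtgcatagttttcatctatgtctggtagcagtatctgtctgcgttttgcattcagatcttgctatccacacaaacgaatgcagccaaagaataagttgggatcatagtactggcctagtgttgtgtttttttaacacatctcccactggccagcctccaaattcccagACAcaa

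The second set comes from introns of a single gene, Rpl13a, and is shown because its rows differed in how evenly they were measured. Snord32a lies at chr7:45127382-45127464, Snord33 at chr7:45126864-45126947, Snord34 at chr7:45126601-45126670 and Snord35a at chr7:45126346-45126435, all on the minus strand.
Snord32a: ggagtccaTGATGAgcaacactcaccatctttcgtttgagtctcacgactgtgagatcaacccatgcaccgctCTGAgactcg
Snord33: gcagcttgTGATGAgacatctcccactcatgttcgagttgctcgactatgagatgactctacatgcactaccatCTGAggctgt
Snord34: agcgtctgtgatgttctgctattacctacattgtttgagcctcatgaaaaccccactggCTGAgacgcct
Snord35a: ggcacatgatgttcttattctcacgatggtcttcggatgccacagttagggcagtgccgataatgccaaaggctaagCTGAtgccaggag

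For the 2 members that passed the test between the groups, only the bases covered by the table's row are shown, since neither row covers the whole RNA. The Scarna10 row (chr6:125186361-125186431, minus strand) covers 71 of the 325 bases of the annotated gene, near its 3′ end, and the Snord93 row (chr5:23852233-23852277, plus strand) covers 45 of 71 bases.
Scarna10: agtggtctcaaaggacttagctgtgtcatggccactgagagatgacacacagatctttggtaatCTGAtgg
Snord93: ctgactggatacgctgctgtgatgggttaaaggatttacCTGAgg

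Between 27793301 and 30769916 reads per library fell on RefSeq rows. Rows with a mean of at least 1 RPKM (reads scaled by the length of the row and by the library total) were tested, which left 118 members among 12320 rows, made up of 64 C/D, 35 H/ACA, 9 scaRNA and 10 Snhg rows. Of the 118, 13 averaged fewer than 10 reads per library, and Snord93 and Snord98 passed only through the Ctrl group, since their NICeCA means were under 1 RPKM. The lowest mean inside the limit was that of Snord98 at 1.25 RPKM, and the highest outside it was that of Snord14a at 0.765 RPKM. The 12 rows not tested included 3 with no read in any library, namely Snord14c, Snord14d and Snord53. The others were Snord14a, Snord58b, Snord64, Snord123, Snora35, Snhg11 and 3 identical rows for the imprinted, brain-enriched Snord116, which held 1 read in 1 library and 0 in the others. Snord3a, Snord13, Snora73a, Snora73b and Snord115 were not analysed here. The row named Snord118 (mean 2.82 RPKM) lies on chromosome 19, whereas GENCODE places the Snord118 gene on chromosome 11, and the row named Snora19 runs from base 24942236 to base 60774385 of chromosome 19. No weight was placed on either.

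The cell type markers set the frame for a bulk fraction, in which fewer cells of a type and less RNA per cell cannot be told apart. All 12 endothelial markers were measured, Pecam1 at 47.5 to 135 RPKM in Ctrl and 125 to 154 RPKM in NICeCA libraries, with 2 of the 12 called higher and none at 0 throughout. Macrophage markers were present in every library, with a summed level of 6426 to 9339 RPKM in Ctrl and 4371 to 8142 RPKM in NICeCA libraries. Lyz2 alone stood at 2611 to 5555 RPKM over the libraries. The endothelial list summed to 224 to 598 and 520 to 680 RPKM, the smaller sum in each library. Sums over different genes do not measure shares of cells, so they cannot be set against the stated purity. Of the macrophage markers, 2 of 9 tested, Cd68 and Fcgr1, were called higher, whereas 5 of the 9 had negative log2 fold changes and the median was -0.17. Neutrophil markers, of which 7 of 8 tested were called higher, summed to 118 to 270 RPKM in Ctrl and 595 to 1643 RPKM in NICeCA libraries. Fibroblast markers summed to 321 to 558 RPKM in Ctrl and 153 to 311 RPKM in NICeCA libraries, with 3 of 6 called lower. Col3a1, at 270 to 454 RPKM in Ctrl and 103 to 226 RPKM in NICeCA libraries, made up most of these sums. Of the 6 log2 fold changes 4 were negative, and those of Col1a1 and Col1a2 were positive at 0.10 and 0.55. Platelet markers summed to 104 to 175 and 894 to 1129 RPKM with 1 of 2 called higher. Nearly all of that sum was Pf4, the marker called, at 130 against 1017 RPKM on average. Itga2b measured 1.46 against 1.93 RPKM on average (adjusted p = 0.416 in limma). Gp9 and Gp1ba averaged under 1 RPKM over all libraries. Mural markers summed to 23.1 to 37.0 and 47.4 to 90.6 RPKM, with 1 of 4 called higher and 3 of the 4 log2 fold changes positive. T and NK markers summed to 38.0 to 50.6 and 35.0 to 46.2 RPKM with 1 of 6 called higher. For T and NK markers 4 of the 6 log2 fold changes were negative, with a median of -0.15. Epithelial or tumor markers stayed at 6.07 to 12.3 RPKM in all libraries with 1 of 2 called lower, and proliferation markers at 145 to 191 RPKM with 1 of 6, Mki67, called lower. Of the 6 proliferation markers 5 had negative log2 fold changes, whereas Pcna was higher in all NICeCA libraries (0.45, adjusted p = 0.0523 in limma). No marker that the table holds was at 0 in all 6 libraries. The part of these cell types in the results below was not tested.

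Few members differed between NICeCA and Ctrl TECs. Among 118 tested, 1 was called higher and 1 lower (limma, Benjamini-Hochberg adjusted p under 0.05), which is 1.69%, whereas 13.6% of all rows tested were called, 5.88% higher and 7.68% lower. At an unadjusted p under 0.05 (limma) there were 11 of the 118 members, against 4377 of all 12320 rows. The 3 libraries of each group did not overlap for 14 members, 9 higher and 5 lower in NICeCA, or 11.9%, whereas this held for 40.9% of all rows. The median log2 fold change was -0.21 for C/D, -0.35 for H/ACA, -0.23 for scaRNA and -0.09 for Snhg rows, with -0.05 over all rows tested. Of the 108 snoRNA and scaRNA rows, 28 had a positive and 80 a negative log2 fold change. These medians leaned on single libraries, as described below, and none of the H/ACA rows was called.

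**Figure D1:**
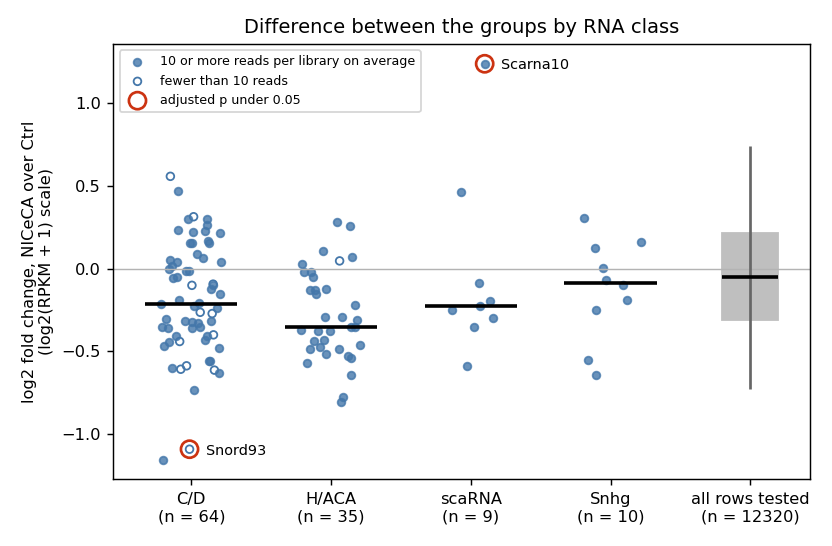
Log2 fold change of each tested member (y axis, log2(RPKM + 1) scale, NICeCA over Ctrl) by RNA class (x axis), with black bars for class medians, open circles for rows averaging fewer than 10 reads and red rings for the 2 called rows. The box and line at the right give the middle 50% and middle 90% of all 12320 rows tested, and Scarna10 is the highest and Snord57 the lowest of the members.

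Scarna10 was the only member called higher. Its RNA, also known as U85, carries both box types and guides modification of the U5 snRNA. The row held 1164, 587 and 1147 RPKM in Ctrl replicates 1 to 3 and 2027, 3134 and 1627 RPKM in NICeCA replicates 1 to 3. All 3 NICeCA libraries lay above all Ctrl libraries, and Ctrl replicate 2 and NICeCA replicate 2 were the extremes. The means were 966 ± 328 RPKM in Ctrl and 2263 ± 781 RPKM in NICeCA (SD, n = 3 each), a ratio of 2.34, with a log2 fold change of 1.24 ± 0.33 (SE) and an adjusted p of 0.0464 (limma, two-sided). With 1659 to 7856 reads in each library, counting error was small beside the spread among libraries. The call lies close to the threshold, and leaving out any 1 library except NICeCA replicate 3 moved the adjusted p to between 0.0536 and 0.166 with log2 fold changes of 0.91 to 1.41. The call was also lost with quantile normalization, with no filter on low rows, with a length trend removed and with the replicate number as a block, at adjusted p of 0.0917, 0.111, 0.0791 and 0.0886 (limma).

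The host of Scarna10 went the other way. Ncapd2, which encodes a subunit of the condensin I complex, measured 9.66, 15.6 and 10.4 RPKM in Ctrl and 6.52, 5.25 and 7.53 RPKM in NICeCA libraries. The NICeCA libraries were all below the Ctrl libraries, with a log2 fold change of -0.78 ± 0.20 (SE) and an adjusted p of 0.0433 (limma). The Scarna10 row stood at 120, 37.5 and 111 times the Ncapd2 level in Ctrl and at 311, 597 and 216 times in NICeCA libraries. The annotation also places a retained-intron transcript of Ncapd2 and the sense intronic transcript Gm28967 over the row, so reads there need not come from Scarna10 alone. Their part was not tested. Exons of longer annotated transcripts likewise overlie other rows, among them Snord22, Snord15b, Snord47, Snora26, Snora68, Snora52, Snord68, Snord100 and Snord33. They do not overlie Snord17, Snora23, Snord37, Snord34 or Snord35a. The part of such transcripts in those rows was not tested either.

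The other scaRNAs did not share the pattern of Scarna10. Scarna6, the next in size of positive difference, measured 1138, 696 and 525 RPKM in Ctrl and 1146, 1154 and 828 RPKM in NICeCA libraries, which overlapped because Ctrl replicate 1 lay above NICeCA replicate 3 (log2 fold change 0.47 ± 0.28, adjusted p = 0.274 in limma). Scarna2, which guides methylation of the U2 snRNA and whose row covers 61 of 414 annotated bases, measured 2635, 2052 and 1367 RPKM in Ctrl and 1294, 1687 and 1825 RPKM in NICeCA libraries. Scarna13, inside Snhg10, measured 1744, 1384 and 733 RPKM against 912, 963 and 1253 RPKM. In both, Ctrl replicate 1 was the highest library, and the groups overlapped. Scarna17 measured 117, 157 and 43.8 RPKM in Ctrl and 62.3, 58.9 and 63.2 RPKM in NICeCA libraries, with Ctrl replicate 3 below all NICeCA libraries and the other Ctrl libraries above them. Scarna3a, Scarna3b, Scarna8 and Scarna9 had means of 9.02 to 22.5 RPKM and log2 fold changes of -0.35 to -0.09.

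Snord93, the only member called lower, rested on very few reads. It measured 2.85, 2.23 and 2.28 RPKM in Ctrl and 0.609, 0.629 and 0.597 RPKM in NICeCA libraries (log2 fold change -1.09 ± 0.14 SE, adjusted p = 0.0109 in limma). These levels are 5, 4 and 4 reads in the Ctrl libraries and 1 read in each NICeCA library. The groups did not overlap, but the row had passed the limit of 1 RPKM through Ctrl alone, and it was no longer tested with a mean of at least 10 reads or 1 RPKM in each group. The call was also lost without NICeCA replicate 2, at an adjusted p of 0.0572 (limma). Its host row, the noncoding 2700038G22Rik, measured 1.10, 3.52 and 1.53 RPKM in Ctrl and 0.480, 0.744 and 0.980 RPKM in NICeCA libraries, with an adjusted p of 0.105 (limma).

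The box C/D class included the most abundant members. Snord22, a snoRNA of the Snhg1 introns that takes part in processing the small-subunit rRNA, measured 6959, 3999 and 2369 RPKM in Ctrl and 3046, 2282 and 3763 RPKM in NICeCA libraries. Snord17, in an intron of the sorting nexin gene Snx5, measured 4997, 3515 and 1985 RPKM in Ctrl and 2804, 2485 and 2146 RPKM in NICeCA libraries. Snord15b, in an intron of the ribosomal protein gene Rps3, measured 4141, 3048 and 2016 RPKM against 2510, 2348 and 2698 RPKM. In all 3 rows, Ctrl replicate 1 was the highest of the 6 libraries and Ctrl replicate 3 was lowest or near the lowest, so that the NICeCA libraries fell inside the Ctrl range or just below it. Their log2 fold changes were -0.44 ± 0.38, -0.41 ± 0.32 and -0.23 ± 0.25 (SE), with adjusted p of 0.427, 0.385 and 0.552 (limma). The 3 rows took 30.9% to 42.6% of all snoRNA and scaRNA reads of a library.

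Other abundant C/D rows were nearly even over the 6 libraries. Snord68, in Rpl13, measured 1470, 2159 and 1882 RPKM in Ctrl and 1741, 1530 and 1832 RPKM in NICeCA libraries. Snord100, in Rps12, measured 969, 1144 and 1258 RPKM against 1327, 1228 and 1186 RPKM. Snord37, in the elongation factor gene Eef2, measured 914, 877 and 852 RPKM against 1033, 804 and 891 RPKM. None of the 3 separated the groups, and their log2 fold changes lay between -0.10 and 0.16.

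**Figure D2:**
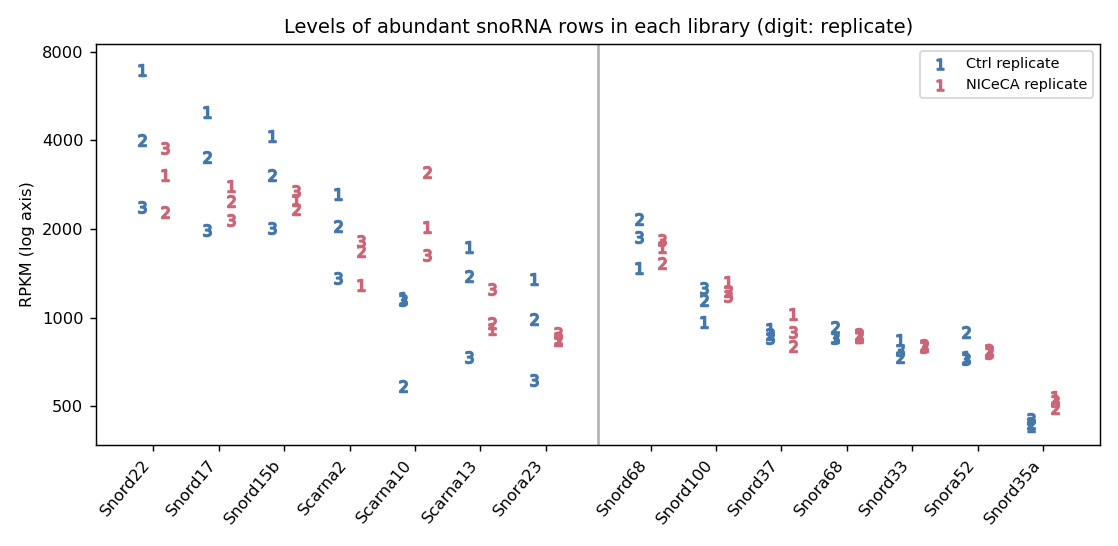
RPKM (y axis, log scale) of 14 abundant snoRNA and scaRNA rows (x axis) in each library, with blue digits for Ctrl and red digits for NICeCA replicates 1 to 3. Left of the line, Ctrl replicate 1 is the highest Ctrl library and Ctrl replicate 3 the lowest in every row except Scarna10, while the rows right of the line span less than 1.5-fold over the 6 libraries.

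Among C/D rows with an average of at least 10 reads, the most negative differences were those of Snord57 and Snord42b. Snord57, in an intron of Nop56, which encodes a core protein of the C/D particle itself, measured 106, 130 and 76.1 RPKM in Ctrl and 28.7, 39.6 and 79.3 RPKM in NICeCA libraries. NICeCA replicate 3 lay above Ctrl replicate 3, so the groups overlapped (log2 fold change -1.16 ± 0.36 SE, adjusted p = 0.0649 in limma). Its host Nop56 measured 33.3, 55.8 and 37.1 RPKM against 22.5, 23.6 and 36.1 RPKM, with a log2 fold change of -0.60 ± 0.24 SE and an adjusted p of 0.122. Snord110, in another intron of Nop56, measured 31.7, 23.4 and 19.6 RPKM in Ctrl and 17.2, 8.64 and 33.2 RPKM in NICeCA libraries, which overlapped widely. Snord42b, in Rpl23a, measured 8.38, 7.76 and 6.53 RPKM in Ctrl and 6.48, 2.06 and 4.88 RPKM in NICeCA libraries, separated by a narrow margin between NICeCA replicate 1 and Ctrl replicate 3, with an adjusted p of 0.125 (limma).

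Among C/D rows with an average of at least 10 reads, the most positive differences were small. Snord43, in Rpl3, measured 16.5, 17.3 and 9.62 RPKM in Ctrl and 18.8, 21.8 and 19.0 RPKM in NICeCA libraries, all of which were above the Ctrl libraries (log2 fold change 0.47 ± 0.21 SE, adjusted p = 0.153 in limma). Snord34, in Rpl13a, measured 549, 506 and 565 RPKM in Ctrl and 701, 692 and 607 RPKM in NICeCA libraries, again without overlap (0.30 ± 0.13, adjusted p = 0.146). Snord2, in the translation factor gene Eif4a2, measured 61.4, 50.2 and 80.3 RPKM against 72.1, 79.6 and 81.3 RPKM, with overlap. None of the 3 passed the test. Snord45b had a larger fold change than these but rested on 4 to 10 reads per library. It measured 3.41, 2.79 and 2.28 RPKM in Ctrl and 4.26, 3.78 and 5.97 RPKM in NICeCA libraries, all of them higher (log2 fold change 0.56 ± 0.18 SE, adjusted p = 0.0739 in limma). Snord38a and Snord85 were also higher and Snord66 lower in all NICeCA libraries, with adjusted p of 0.298, 0.391 and 0.0806 (limma).

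Rows of the Rpl13a introns showed that neighbours in a single host could be measured very differently. These C/D RNAs are known from work on lipotoxic and oxidative stress. Snord33 measured 837, 738 and 776 RPKM in Ctrl and 804, 809 and 797 RPKM in NICeCA libraries, a span of 1.13-fold. Snord35a measured 429, 439 and 452 RPKM against 539, 495 and 520 RPKM, with the NICeCA libraries all higher by a log2 fold change of 0.24 ± 0.12 SE (adjusted p = 0.205 in limma). Snord32a, at 0.0915 of the host level, measured 123, 118 and 69.0 RPKM against 91.0, 78.3 and 124 RPKM, a span of 1.80-fold. Rpl13a itself measured 1011, 1028 and 897 RPKM in Ctrl and 1291, 1324 and 1049 RPKM in NICeCA libraries (log2 fold change 0.31 ± 0.15 SE, adjusted p = 0.177), so that Snord34, Snord35a and their host were each higher in all 3 NICeCA libraries.

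Box H/ACA rows had the most negative class median and no row whose groups were separated. Of the 35 tested, 29 had a negative log2 fold change, and the range was -0.81 to 0.28. Snora23, in the importin gene Ipo7, measured 1356, 991 and 614 RPKM in Ctrl and 851, 837 and 886 RPKM in NICeCA libraries, and Snora26, in the noncoding host Dancr, measured 1435, 944 and 486 RPKM against 589, 697 and 772 RPKM. In both rows the 3 NICeCA libraries lay between Ctrl replicates 2 and 3. Snora68 was the most even of the 95 rows averaging at least 10 reads, with 857, 928 and 855 RPKM in Ctrl and 857, 879 and 861 RPKM in NICeCA libraries, a span of 1.09-fold. Snora52, in Rplp2, measured 737, 893 and 724 RPKM against 774, 776 and 757 RPKM, with Ctrl replicate 2 somewhat above the rest.

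The H/ACA rows with the most negative values were Snora36b, Snora65 and Snora5c. Snora65, in Rpl12, measured 149.96, 100.02 and 115 RPKM in Ctrl and 57.4, 54.3 and 109 RPKM in NICeCA libraries (log2 fold change -0.78 ± 0.28 SE, adjusted p = 0.0931 in limma). NICeCA replicate 3 was again inside the Ctrl range. Snora36b, in the Rab3gap2 gene, measured 8.84, 4.22 and 4.54 RPKM against 1.94, 2.01 and 4.99 RPKM, and Snora5c, in Tbrg4, 56.8, 40.0 and 26.7 RPKM against 16.3, 22.2 and 41.7 RPKM. Both overlapped through NICeCA replicate 3, with adjusted p of 0.128 and 0.240 (limma). Without NICeCA replicate 3, Snora36b, Snora65 and Snord57 had log2 fold changes of -1.15, -1.09 and -1.56 and adjusted p of 0.0454, 0.0333 and 0.0307 (limma). That library was singled out after it was seen to cause the overlap. These values therefore describe its weight and lend no support to a difference between the groups.

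The libraries of the Ctrl group spread more widely than those of the NICeCA group for these RNAs. Reads on snoRNA and scaRNA rows made up 0.794%, 0.612% and 0.403% of RefSeq reads in Ctrl replicates 1 to 3 and 0.509%, 0.484% and 0.520% in NICeCA replicates 1 to 3. The 95% Wilson intervals of these shares were at most 0.00319 percentage points to either side and cover counting error only. The NICeCA shares lay between Ctrl replicates 2 and 3, and the groups overlapped. The same order among the Ctrl libraries was seen in C/D reads (0.448%, 0.328% and 0.226%), H/ACA reads (0.213%, 0.189% and 0.112%) and scaRNA reads (0.134%, 0.0953% and 0.0649%). Without the 3 most abundant rows the shares were 0.456%, 0.389% and 0.270% in Ctrl and 0.336%, 0.335% and 0.349% in NICeCA libraries.

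**Figure D3:**
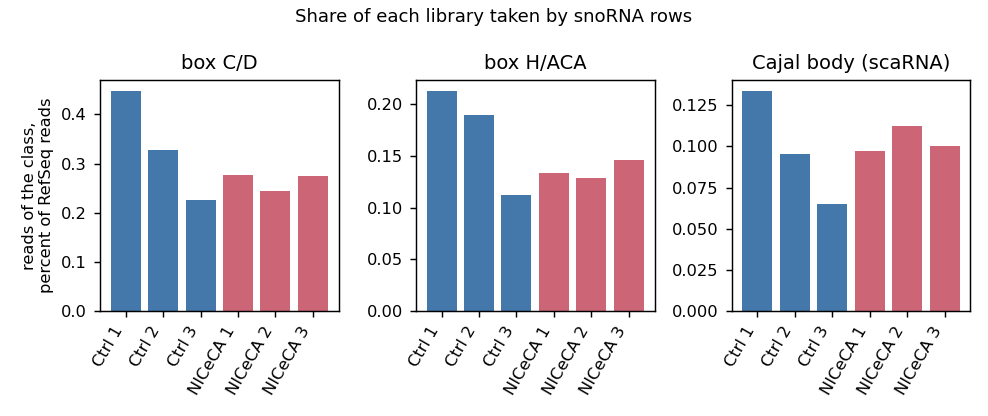
Reads on box C/D, box H/ACA and scaRNA rows as percent of all RefSeq reads (y axes from 0, one panel per class) in the 6 libraries (x axis, blue Ctrl, red NICeCA). Ctrl replicate 1 is highest and Ctrl replicate 3 lowest in each panel, and the NICeCA bars lie between Ctrl replicates 1 and 3.

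Counted by row, Ctrl replicate 1 exceeded Ctrl replicate 3 in 88 of the 108 snoRNA and scaRNA rows tested, and it was the highest of the 6 libraries in 53, against 1039 of all 12320 rows. Ctrl replicate 3 was the lowest of the 6 in 41 of the 108, against 650 of all rows. The median difference of Ctrl replicate 1 over Ctrl replicate 3 was 0.49 on the log2 scale for C/D, 1.03 for H/ACA and 1.12 for scaRNA rows, and -0.11 over all rows. For Snhg rows it was -0.06. The short structural RNAs Rmrp and Rpph1 kept this order among the Ctrl libraries. Rmrp, the RNA of the mitochondrial RNA processing RNase, took 6.60%, 5.57% and 3.65% of RefSeq reads in Ctrl and 4.04%, 4.44% and 5.24% in NICeCA libraries. Rpph1 took 3.62%, 3.52% and 2.79% in Ctrl and 1.67%, 4.62% and 2.05% in NICeCA libraries, so that it spread more widely in NICeCA. The ribosomal precursor row Rn45s, which holds the rRNA that library preparation was to remove, took 3.857%, 6.396% and 1.871% in Ctrl and 0.825%, 1.06% and 1.92% in NICeCA libraries. The part of these rows in the differences among Ctrl libraries was not tested.

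The class medians followed these libraries. Without Ctrl replicate 3, 15 members were called lower, or 12.7% of 118, with 6.05% of all rows called lower in the same fit. They comprised 11 H/ACA rows, 3 C/D rows and Scarna17. The H/ACA rows were Snora16a, Snora17, Snora21, Snora24, Snora31, Snora43, Snora64, Snora69, Snora78, Snora7a and Snora81, and the C/D rows Snord1b, Snord93 and Snord111. The H/ACA median then stood at -0.69, the C/D median at -0.34 and the scaRNA median at -0.58. Without Ctrl replicate 1 the same medians were -0.09, 0.01 and 0.04, and the lone snoRNA called was Snord93. No direction for a class is therefore given here.

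Rows also differed in their spread in a way that went with the type of host. GRCm38 RefSeq rows of a host gene on the same strand enclosed 104 of the 119 snoRNA and scaRNA rows, in 78 different host rows, of which 22 encode ribosomal proteins and 8 carry an Snhg name. The groupings in the rest of this paragraph were made after values had been seen and are descriptions. Among rows with an average of at least 10 reads, the median SD within groups was 0.26 (log2) for the 29 rows in ribosomal protein genes and 0.52 for the 61 rows in other hosts, with 0.18 over all rows tested. These sets also differed in level, with medians of 479 RPKM in ribosomal protein genes and 52.0 RPKM in other hosts. The part of level in the spread was not tested. Of the 18 rows whose 6 values spanned less than 1.5-fold, 14 lay in ribosomal protein genes, among them Snora3, Snora62, Snord4a, Snord38a, Snord42a and Snord83b. Rows in ribosomal protein genes had a median level of 0.549 times that of the host, and rows in other hosts 2.10 times. Among rows in other hosts, Scarna13 stood at 919, Scarna10 at 176 and Snord22 at 125 times. Rows and hosts differ greatly in length, as with 71 bases for Scarna10 and 4514 bases for Ncapd2. The part of length in these ratios was not tested.

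Intron size went with the spread in ribosomal protein genes, in a grouping also made after values had been seen. Within ribosomal protein genes, 11 rows in introns of up to 250 bases had a median SD of 0.14 and 18 rows in longer introns one of 0.38. In other hosts the medians were close to each other, at 0.52 for 16 rows in introns of up to 250 bases and 0.50 for 43 rows in longer introns. In introns of up to 250 bases, rows of ribosomal protein genes were thus more even than rows of other hosts by this median, with Snord37 in Eef2 as an even row of the latter kind. Median levels in shorter and longer introns were 563 and 147 RPKM in ribosomal protein genes and 72.0 and 32.7 RPKM in other hosts. Level thus differed between these sets as well, and its part in the spread was not tested.

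**Figure D4:**
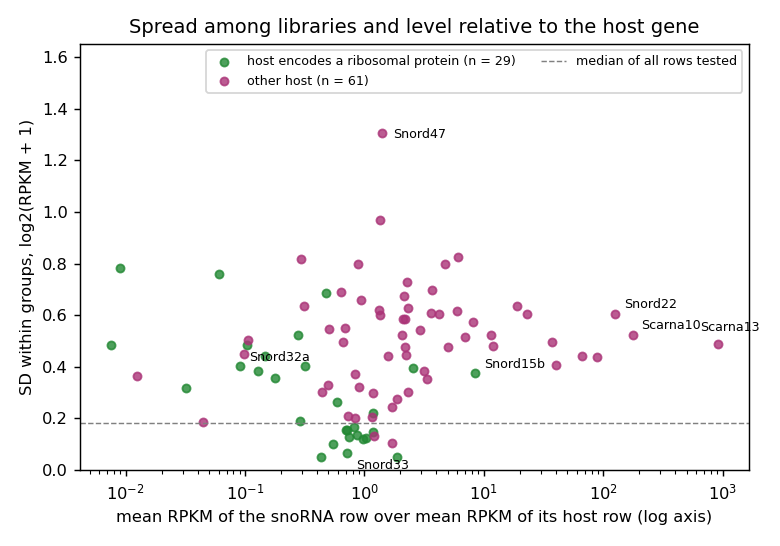
SD within groups of log2(RPKM + 1) (y axis) against the mean RPKM of a snoRNA or scaRNA row divided by that of its host row (x axis, log scale), for the 90 rows with a host and an average of at least 10 reads. Points below the dashed line, the median of all rows tested at 0.18, are mostly green (host encodes a ribosomal protein) and near a ratio of 1, while purple points (other hosts) lie mostly above it, with Snord47 at the top.

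The most uneven of the rows averaging at least 10 reads was Snord47 in Gas5, a noncoding host of many C/D snoRNAs and a target of nonsense-mediated decay. Snord47 measured 150, 92.7 and 14.6 RPKM in Ctrl and 67.4, 52.3 and 27.7 RPKM in NICeCA libraries, a span of 10.3-fold, with Ctrl replicates 1 and 3 as the extremes. Gas5 measured 48.8, 56.0 and 50.5 RPKM in Ctrl and 38.8, 41.9 and 53.3 RPKM in NICeCA libraries, so that the snoRNA varied far more than its host. Neither separated the groups, with adjusted p of 0.763 for Snord47 and 0.321 for Gas5 (limma).

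Host genes and their snoRNAs differed in direction about as often as not. Of the 90 pairs of a row and a tested host, 49 had log2 fold changes of the same sign, and over these pairs Pearson's r was 0.15 and Spearman's rho 0.25, given as a description since pairs share hosts and all share the same 6 libraries. Of 76 host rows tested, 1 was called higher (1.32%) and 3 lower (3.95%), with a median log2 fold change of -0.06, whereas 5.88% and 7.68% of all rows were called higher and lower. Tpt1, which encodes the translationally controlled tumor protein, was higher at 1017 against 632 RPKM on average (log2 fold change 0.69, adjusted p = 0.0364 in limma), whereas its Snora31 measured 128, 118 and 53.1 RPKM in Ctrl and 80.978, 78.4 and 66.2 RPKM in NICeCA libraries. Besides Ncapd2, the hosts called lower were the chromatin remodeler gene Chd8, with Snord8, and 5830418K08Rik, with Scarna9, at log2 fold changes of -0.45 and -0.51. Snord8 and Scarna9 had log2 fold changes of 0.05 and -0.25 and overlapped between the groups. Of the 22 ribosomal protein hosts, 17 had a positive log2 fold change with a median of 0.15, and none was called.

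None of the 10 Snhg genes tested passed the test. The groups did not overlap for 4 of them, or 40%, which is near the 40.9% of all rows. Snhg4, host of Snora74a, measured 6.30, 10.4 and 8.9998 RPKM in Ctrl and 4.93, 4.04 and 6.28 RPKM in NICeCA libraries (log2 fold change -0.65 ± 0.20 SE, adjusted p = 0.0675 in limma). Snhg7, host of Snora43 and Snora17, measured 9.87, 15.4 and 10.1 RPKM in Ctrl and 7.05, 6.53 and 9.34 RPKM in NICeCA libraries (-0.55 ± 0.20, adjusted p = 0.0927). The NICeCA libraries of both were all lower than the Ctrl libraries, by a narrow margin at the edge. Without Ctrl replicate 1, Snhg4 was called lower with a log2 fold change of -0.83 and an adjusted p of 0.0452.

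Snhg3 and Snhg1 were separated in the other direction. Snhg3 measured 18.3, 18.043 and 15.5 RPKM in Ctrl and 21.005, 23.4 and 20.5 RPKM in NICeCA libraries (log2 fold change 0.31 ± 0.12 SE, adjusted p = 0.117 in limma). Snhg1 measured 26.6, 27.7 and 30.1 RPKM in Ctrl and 31.4, 31.5 and 31.5 RPKM in NICeCA libraries (0.16 ± 0.11, adjusted p = 0.338). The Snhg1 exons thus spanned 1.19-fold over the 6 libraries, whereas Snord22 of its introns spanned 3.05-fold.

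The remaining Snhg genes overlapped between the groups. Snhg12, host of Snora16a, Snora44, Snora61 and Snord99, measured 27.3, 34.8 and 26.3 RPKM in Ctrl and 21.8, 22.9 and 29.2 RPKM in NICeCA libraries. Snhg5 measured 18.8, 18.5 and 20.2 RPKM against 16.3, 15.3 and 18.5 RPKM, with the edges of the groups almost touching. Snhg6, host of Snord87, measured 13.968, 21.4 and 23.9 RPKM against 15.2, 18.3 and 20.6 RPKM. Snhg9, host of Snora78, measured 39.0, 65.7 and 38.0 RPKM against 41.5, 37.6 and 53.9 RPKM, with Ctrl replicate 2 the highest. Snhg10, host of Scarna13, was near the limit at 0.920, 1.19 and 1.41 RPKM against 1.40, 1.07 and 1.62 RPKM, and Snhg11 at 0.0218 to 0.0869 RPKM was not tested.

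**Figure D5:**
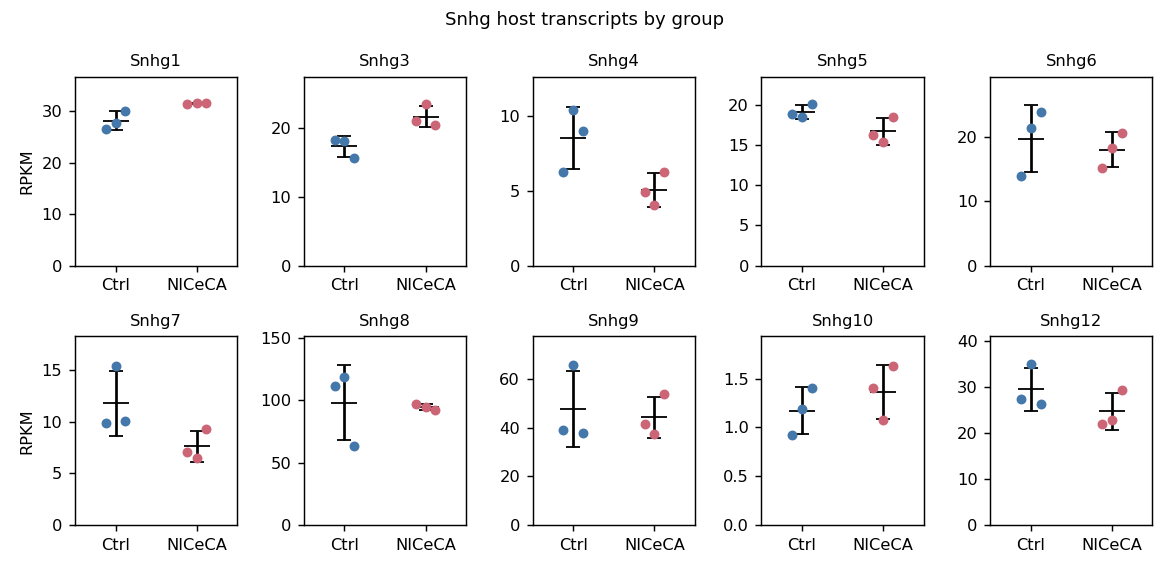
RPKM (y axes from 0) of the 10 tested Snhg genes, one panel each, in Ctrl (blue) and NICeCA (red) libraries, with points for single libraries and black bars for the mean and SD (n = 3). Snhg4 and Snhg7 are lower and Snhg1 and Snhg3 higher in all NICeCA libraries, without an adjusted p under 0.05.

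Snhg8 needs a separate account because its row covers the whole gene, introns included, and so spans Snora24. Whether reads of Snora24 were also counted for Snhg8 is not stated. Snhg8 measured 112, 119 and 63.8 RPKM in Ctrl and 97.3, 95.01 and 92.5 RPKM in NICeCA libraries, and Snora24 measured 331, 355 and 101 RPKM against 169, 197 and 161 RPKM. Ctrl replicate 3 was the lowest in both. On the assumption that they were, taking the Snora24 reads out of the Snhg8 row left 68.5, 72.4 and 56.4 RPKM in Ctrl libraries. The NICeCA libraries were left with 83.0, 74.7 and 78.8 RPKM, in both groups over the remaining 655 bases. With that step, made after the values had been seen and not tested, all NICeCA libraries were above the Ctrl libraries. This order rests on the assumption about counting.

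Among the H/ACA rows inside Snhg genes, Snora61 measured 458, 351 and 263 RPKM in Ctrl and 206, 182 and 408 RPKM in NICeCA libraries, and Snora44 of the same host 279, 173 and 131 RPKM against 149, 145 and 264 RPKM. NICeCA replicate 3 was the highest NICeCA library in both and lay inside the Ctrl range. Snora78, inside Snhg9, measured 344, 337 and 166 RPKM against 157, 161 and 230 RPKM, and Snora43, inside Snhg7, 338, 352 and 129 RPKM against 189, 142 and 188 RPKM. In these rows, Ctrl replicates 1 and 2 were above all NICeCA libraries and Ctrl replicate 3 was not. Snord87, inside Snhg6, was among the even rows at 21.8, 23.8 and 19.1 RPKM in Ctrl and 22.6, 25.3 and 17.8 RPKM in NICeCA libraries.

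The ratio of a snoRNA to its Snhg exons spanned more in Ctrl than in NICeCA libraries for 7 of 8 pairs computed. Snhg8 was left out because its row spans Snora24, and other rows of Snhg12, such as Snora16a and Snora44, were not computed. Snora43 and Snora17 were both set over Snhg7, so the 8 ratios are not independent. Snord22 stood at 262, 144 and 78.7 times Snhg1 in Ctrl and at 97.1, 72.4 and 119 times in NICeCA libraries. Scarna13 stood at 1896, 1166 and 522 times Snhg10 in Ctrl and at 652, 899 and 771 times in NICeCA libraries. For Snora43 over Snhg7 the ratios were 34.3, 22.8 and 12.7 against 26.8, 21.8 and 20.1. In these 3 pairs the groups overlapped. Snora74a over Snhg4 stood at 124, 77.9 and 42.4 in Ctrl and 117, 131 and 91.9 in NICeCA libraries, so that NICeCA replicate 2 was the highest. Snora78 over Snhg9 was the pair without overlap, at 8.82, 5.13 and 4.37 in Ctrl and 3.77, 4.28 and 4.28 in NICeCA libraries, with a narrow margin at the edge. Snora61 over Snhg12 was the exception in span, at 16.8, 10.1 and 10.0 in Ctrl and 9.43, 7.96 and 13.97 in NICeCA libraries, or 1.68-fold and 1.76-fold.

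Of 42 tested genes of the snoRNA pathway and of nonsense-mediated decay, 0 were called higher and 3 lower, or 7.14%, near the 7.68% of all rows called lower. None of the 8 core proteins of the particles (Fbl, Nop56, Nop58, Nhp2l1, Dkc1, Nop10, Nhp2 and Gar1) was called, and their median log2 fold change was -0.04. Fbl, the methyltransferase of C/D particles, measured 32.4, 43.3 and 34.0 RPKM in Ctrl and 34.4, 31.5 and 34.7 RPKM in NICeCA libraries, and Dkc1, the pseudouridine synthase of H/ACA particles, 5.19, 9.83 and 9.26 RPKM against 5.92, 5.83 and 8.08 RPKM. Of 16 assembly and Cajal body genes, 1 was called lower, namely Tcof1, which encodes the nucleolar protein treacle (log2 fold change -0.62 ± 0.16 SE, adjusted p = 0.0444 in limma), with a median of -0.19 over the list. None of 8 nucleases that trim or degrade snoRNAs was called, with a median of -0.15. Dis3, a catalytic subunit of the exosome, Xrn1 and Parn were lower in all NICeCA libraries. Their log2 fold changes were -0.40, -0.35 and -0.23, with adjusted p of 0.116, 0.116 and 0.208 (limma). The exosome gene Exosc3 was higher in all NICeCA libraries (0.17, adjusted p = 0.304 in limma). Groups without overlap were found for 40.9% of all rows. Of 10 nonsense-mediated decay factors, Upf1 and Smg6 were called lower, at log2 fold changes of -0.65 each and adjusted p of 0.0317 and 0.0423, and 9 of the 10 had negative values with a median of -0.32.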

How the data were processed

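Bulk RNA-seq libraries of TECs, 3 from NICeCA and 3 from Ctrl mice, were compared. Per the methods, ribosomal RNA was removed with a Ribo-Zero kit and the rest was fragmented before cDNA synthesis. The authors deposited RPKM values for 56826 rows. TopHat2 and the mm9 build appear in the submitters' processing notes, whereas row positions are those of GRCm38, at which 107 of the 119 snoRNA and scaRNA rows coincide with the current RefSeq annotation. No source used here gives the counting tool, the treatment of reads that map to several places or the use of strand, and reads of a snoRNA, its host and near-identical copies cannot be fully separated. The 33353 FANTOM3 rows, which cover the same reads, were left out.

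Values are whole reads divided by row length and library total, and reads recovered from them were whole within 0.05 in 100.0% of the low values checked. Log2(RPKM + 1) of NICeCA and Ctrl libraries was compared by limma (version 3.58.1, under R 4.3.3), using lmFit and eBayes with a trend of variance on mean (two-sided, Benjamini-Hochberg adjustment over all 12320 rows with a mean of at least 1 RPKM, adjusted p under 0.05). Fold changes on this scale are understated for low rows. Spread within groups is the pooled SD of log2(RPKM + 1). An exact permutation test of 3 against 3 libraries has 20 assignments and cannot go below p = 0.1, and was not used. The procedure was run on simulated data that gave all rows the same spread beyond counting error. In the real data the median SD within groups was 0.46 for snoRNA and scaRNA rows and 0.18 over all rows tested. The simulation therefore does not show how the test behaves for these rows.

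Hosts are RefSeq rows that enclose a snoRNA row, and intron sizes and sequences are from GENCODE M21. Genes named are those called, all tested Snhg genes, the 12 most abundant snoRNA or scaRNA rows, the 5 largest differences in each direction among rows averaging at least 10 reads, snoRNAs inside named Snhg genes, snoRNAs of textbook function, and hosts of called rows. Others named for the evenness of their levels, for their host or for an effect of leaving out a library were chosen after their values were seen. The members, the pathway lists and the 9 lists of cell type markers were chosen with earlier results of these data known. Alternatives comprised trimmed mean scaling, quantile normalization, a library total without structural RNAs, a pseudocount of 0.1, other filters, limma without the trend, voom on recovered reads, removal of a length trend, a replicate block and leaving out each library. All 6 columns matched a sample. The host of 1 snoRNA row is not reported here.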

Additional observations from a re-analysis of the deposited data

How the results depend on the processing

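Over the 31 snoRNA, scaRNA and Snhg genes named by rule, 513 of 553 refits gave the same direction and the same side of the threshold. Scarna10 stayed higher throughout (log2 fold change 0.91 to 1.45) and was called in 10 of 19 fits, and in none with quantile normalization, no filter, the length trend removed or the replicate block (adjusted p 0.0917, 0.111, 0.0791 and 0.0886). The number of snoRNA and scaRNA rows called higher, 1 in the report, was 0 with quantile normalization, 0 with no filter, 0 with the replicate block and 2 at an adjusted p under 0.1, and 0 to 1 when a library was left out. With the length trend removed the row called was Snord45b, at fewer than 10 reads. The number called lower, also 1, was 0 with a mean of at least 5 RPKM, 0 with at least 10 reads, 0 with 1 RPKM in each group and 0 with voom, 4 at an adjusted p under 0.1, and 0 to 15 when a library was left out, the 15 without Ctrl replicate 3, 4 without NICeCA replicate 3 and 0 without NICeCA replicate 2. Snhg genes called lower numbered 2 at an adjusted p under 0.1 and 0 to 1 when a library was left out, the 1 being Snhg4 without Ctrl replicate 1. No Snhg gene was called higher in any fit. Without Ctrl replicate 3, 6.05% of all rows were called lower. For the other alternative fits and the looser threshold the share of all rows called is not given. Their counts therefore cannot be set against a background. The cause of these differences was not tested.

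Of genes with small differences, some turned sign, none of them called. Quantile normalization gave -0.33 for Snhg8, -0.057 for Snord100, -0.011 for Snord2 and -0.19 for Snord37. Removal of the length trend gave -0.070 for Snhg1, -0.10 for Snhg10, -0.18 for Snhg8 and 0.0008 for Snord68. The total without structural RNAs gave -0.065 for Snhg8 and -0.029 for Snord37, voom gave -0.030 for Snhg8, and trimmed mean scaling gave 0.012 for Snhg9 and 0.062 for Snora68. With single libraries left out the values ran from -0.59 to 0.035 for Scarna13, -0.32 to 0.046 for Snhg6, -0.28 to 0.17 for Snhg8, -0.22 to 0.18 for Snhg9, -0.43 to 0.14 for Snora23, -0.043 to 0.016 for Snora68, -0.50 to 0.021 for Snord15b, -0.057 to 0.12 for Snord37 and -0.25 to 0.028 for Snord68.

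The median log2 fold change of the snoRNA and scaRNA rows, -0.25, was -0.33 to -0.17 over the scalings and -0.50 to -0.05 over the libraries left out. The total without structural RNAs moved the median of all rows to -0.11. Same-numbered libraries of the 2 groups deviated from their group means with correlations of 0.12, -0.34 and -0.18. With 3 libraries per group, such correlations depend on one another and cannot decide whether the numbers mark pairs. How the pairs of mice in the methods map to the libraries is not stated. With the replicate block 0 rows were called higher and Snord93 stayed lower. Rows of 45 to 70 bases at a few RPKM hold under 10 reads, which limits what could be detected for them.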
